A study of Mus musculus and Homo sapiens with 12 samples.

Results

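Lineage-choice transcription factors were examined as a set of 10 genes: the erythroid factors GATA1, KLF1, ZFPM1 and NFE2, and the myeloid factors SPI1, CEBPA, CEBPE, GFI1, IKZF1 and BCL11A. They were chosen by symbol from a list of factors that direct blood progenitors to red cell or white cell fates. All 10 were found among the 55487 genes of the mouse table and the 78932 genes of the human table, and all 10 passed the filter on low counts in both experiments.

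Polyadenylated RNA was sequenced in 12 libraries, 3 in each of 4 groups, to compare blood progenitors with and without DDX21, an RNA helicase of the nucleolus. The mouse experiment used LK cells (lineage- Kit+), sorted from fetal liver at E13.5. Both mouse groups carried the Ddx21f/f alleles, in which loxP sites flank part of Ddx21. The WT group was Ddx21f/f without Cre, and the cKO group was Vav-Cre; Ddx21f/f, where the Vav promoter drives Cre across blood cells. The lineage antibodies were against Gr1, CD11b, CD3, B220 and Ter119, so cells with surface markers of granulocytes, macrophages, T cells, B cells and late red cell precursors were sorted away. The human experiment used blood stem cell-like cells grown from the embryonic stem cell line H1. These carried lentivirus shNC-mCherry (control hairpin, shNC) or lentivirus shDDX21-mCherry (hairpin against DDX21, shDDX21) and were sorted as CD34+, CD45+, CD43+ and hairpin-positive 2 days after transduction. The human arm therefore rests on 1 cell line and names 1 hairpin per group. The labels do not say whether libraries came from separate embryos or cultures, so p-values measure the spread between these libraries, which may be technical.

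GATA1 and PU.1, the protein of SPI1, are the classic opposed pair of blood fate choice: each binds the other and restrains its activity, with GATA1 favouring red cells and megakaryocytes and PU.1 favouring macrophages, granulocytes and B cells. ZFPM1 (also called FOG1) is the cofactor that GATA1 needs at many of its sites, and KLF1 and NFE2 switch on red cell genes with it. C/EBP alpha, GFI1 and C/EBP epsilon drive granulocyte formation in succession. Ikaros (IKZF1) and BCL11A are zinc finger regulators used in lymphoid and stem cells, BCL11A also being the silencer of fetal globin.

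Promoter sequences are shown for Gata1, Ikzf1 and Bcl11a, the factors that changed in both experiments and had an entry in the RefSeq promoter table (GRCm38.p6). Each is up to 250 bases before the RefSeq start, 5′ to 3′ on the gene's strand, outside annotated exons but inside the span of the longer GENCODE gene model. Capitals mark matches, on either strand and with overlap allowed, to 5 motifs. These are the GATA motifs AGATAA and TGATAA, the CACC box CCNCNCCC that KLF-type factors bind, the box CCAAT and GAGGAA, the core bound by PU.1 and its relatives.
Gata1, chrX:7967911-7968160, minus strand: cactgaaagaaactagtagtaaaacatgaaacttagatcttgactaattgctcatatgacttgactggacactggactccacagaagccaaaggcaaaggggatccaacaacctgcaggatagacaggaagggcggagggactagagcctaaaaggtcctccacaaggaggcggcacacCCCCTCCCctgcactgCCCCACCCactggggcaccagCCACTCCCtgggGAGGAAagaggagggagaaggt
Ikzf1, chr11:11685675-11685924, plus strand: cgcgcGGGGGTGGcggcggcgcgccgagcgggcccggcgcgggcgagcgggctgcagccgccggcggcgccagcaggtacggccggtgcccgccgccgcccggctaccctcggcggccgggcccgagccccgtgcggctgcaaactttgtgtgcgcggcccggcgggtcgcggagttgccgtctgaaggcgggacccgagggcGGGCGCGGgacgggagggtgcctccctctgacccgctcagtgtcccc
Bcl11a, chr11:24080445-24080669, plus strand: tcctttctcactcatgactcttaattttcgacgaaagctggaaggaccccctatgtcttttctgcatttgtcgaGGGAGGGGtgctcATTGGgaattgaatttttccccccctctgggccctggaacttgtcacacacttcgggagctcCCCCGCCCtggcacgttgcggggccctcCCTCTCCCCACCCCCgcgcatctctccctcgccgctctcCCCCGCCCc
The Gata1 window (54.0% GC) held 3 CACC-type matches and 1 PU.1 core. The Ikzf1 window (82.0% GC) held 2 CACC-type matches, both on the minus strand. The Bcl11a window, 225 bases with 60.4% GC, held 6 CACC-type matches and 1 match to the box CCAAT, on the minus strand. None of the 3 held either GATA motif. Of all RefSeq promoters cut to 250 bases, the CACC-type motif was in 45.9%, the box CCAAT in 33.8%, the PU.1 core in 23.3%, AGATAA in 10.0% and TGATAA in 7.9%. Cut to 225 bases, 41.8% held the CACC-type motif and 31.6% the box CCAAT. These matches describe letters and are not evidence of binding. Of the 10 factors, 7 had an entry, and Nfe2, Spi1 and Cebpe did not.

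The mouse libraries held 21116079 to 23898130 counts and the human libraries 15289510 to 19798608. The targeted gene was at 19.7% of WT in cKO and at 14.5% of shNC in shDDX21. The typical variation between libraries of a group (biological coefficient of variation) was 10.5% in the mouse and 2.23% in the human experiment over all genes. Stem and progenitor markers were present, among them Kit of the mouse gate and CD34, PTPRC (CD45) and SPN (CD43) of the human gate. Cd34, Kit, Ptprc and Spn were at 134, 362, 70.9 and 331 CPM (counts scaled to library size) in WT. CD34, KIT, PTPRC and SPN were at 249, 170.2, 94.9 and 691 CPM in shNC. These markers also differed between groups: Cd34 was at 215, Kit at 317, Ptprc at 101 and Spn at 301 CPM in cKO, and CD34 at 297, KIT at 186, PTPRC at 69.4 and SPN at 883 CPM in shDDX21, all called. Differences were tested with edgeR's quasi-likelihood test over all genes, and called means an adjusted p (Benjamini-Hochberg) below 0.05. Every mean ± SD below is over n = 3 libraries.

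In mouse LK cells without Ddx21, Klf1 fell to 44.9% of WT and Gata1 to 78.7%, while Nfe2 rose to 127%. Of the myeloid factors, Cebpe fell to 25.4%, Ikzf1 to 80.7% and Bcl11a to 81.8% of WT. In all, 6 of the 10 factors were called, against 36.5% of the 14918 genes tested. Of these, 5 were lower, against 15.8% of all genes, and 1 was higher, against 20.7%. The same 6 factors had groups that did not overlap, against 49.0% of all genes. The median log2 fold change was -0.60 over the 4 erythroid and -0.16 over the 6 myeloid factors, with 0.0 over all genes. In these bulk samples, fewer cells of a type and less RNA per cell cannot be told apart.

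Gata1 (ENSMUSG00000031162, GRCm38 chromosome X, 7959260 to 7978071, minus strand) was at 248, 243 and 218 CPM in the 3 WT libraries and at 216, 161 and 180.3 CPM in the 3 cKO libraries. The groups did not overlap, but WT replicate 3 and cKO replicate 1 were close, at 218 and 216 CPM. Means were 236 ± 16.1 CPM in WT and 186 ± 27.7 CPM in cKO, giving a log2 fold change of -0.35 (SE 0.11, 95% interval -0.59 to -0.10, adjusted p 0.0382). The call was lost when WT replicate 1 (adjusted p 0.117), WT replicate 2 (0.113), cKO replicate 2 (0.066) or cKO replicate 3 (0.126) was left out. Gata1 lies on the X chromosome, where 497 tested genes had a median log2 fold change of 0.07, with 130 called higher and 76 lower. The 14377 tested genes on the autosomes had a median of 0.0, with 2947 called higher and 2272 lower.

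Klf1 (ENSMUSG00000054191, chromosome 8, 84901928 to 84905295, plus strand), the activator of adult globin and red cell membrane genes, was at 134, 119.8 and 81.3 CPM in WT and at 63.6, 36.8 and 50 CPM in cKO. Every cKO library was below every WT library, though WT replicate 3 stood well under the other two. Means were 112 ± 27.4 CPM and 50.1 ± 13.4 CPM, giving a log2 fold change of -1.16 (SE 0.24, 95% interval -1.71 to -0.60, adjusted p 0.00804). This was the largest change among the erythroid factors of the mouse, and the call held in all 15 alternatives, with log2 fold changes between -1.35 and -0.83.

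Zfpm1 (ENSMUSG00000049577, chromosome 8, 122282141 to 122337251, plus strand), the GATA1 cofactor, was at 219, 195 and 89.9 CPM in WT and at 149.5, 50.9 and 78.7 CPM in cKO. The groups overlapped, with WT replicate 3 below cKO replicate 1. The mean was 168 ± 68.8 CPM in WT and 93.1 ± 50.9 CPM in cKO, and the log2 fold change of -0.85 had an interval of -1.89 to 0.18 (adjusted p 0.17). Zfpm1 was thus not called, and the interval holds both no change and a fall larger than that of Klf1. Leaving out 1 library moved it between -0.54, without cKO replicate 2, and -1.36, without cKO replicate 1, where it was called lower (adjusted p 0.025).

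Nfe2 (ENSMUSG00000058794, chromosome 15, 103248212 to 103258403, minus strand), the blood-specific subunit of NF-E2 and also a driver of platelet formation, was the only factor of the 10 called higher in the main fit. It was at 95.9, 88.7 and 81.9 CPM in WT and at 125, 98.5 and 116 CPM in cKO. All 3 cKO libraries were above all 3 WT libraries. Means were 88.8 ± 7.01 CPM and 113 ± 13.3 CPM, giving a log2 fold change of 0.35 (SE 0.095, 95% interval 0.13 to 0.57, adjusted p 0.0258). The call was lost without WT replicate 2 (adjusted p 0.0851), WT replicate 3 (0.0672) or cKO replicate 3 (0.0941).

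**Figure D1:**
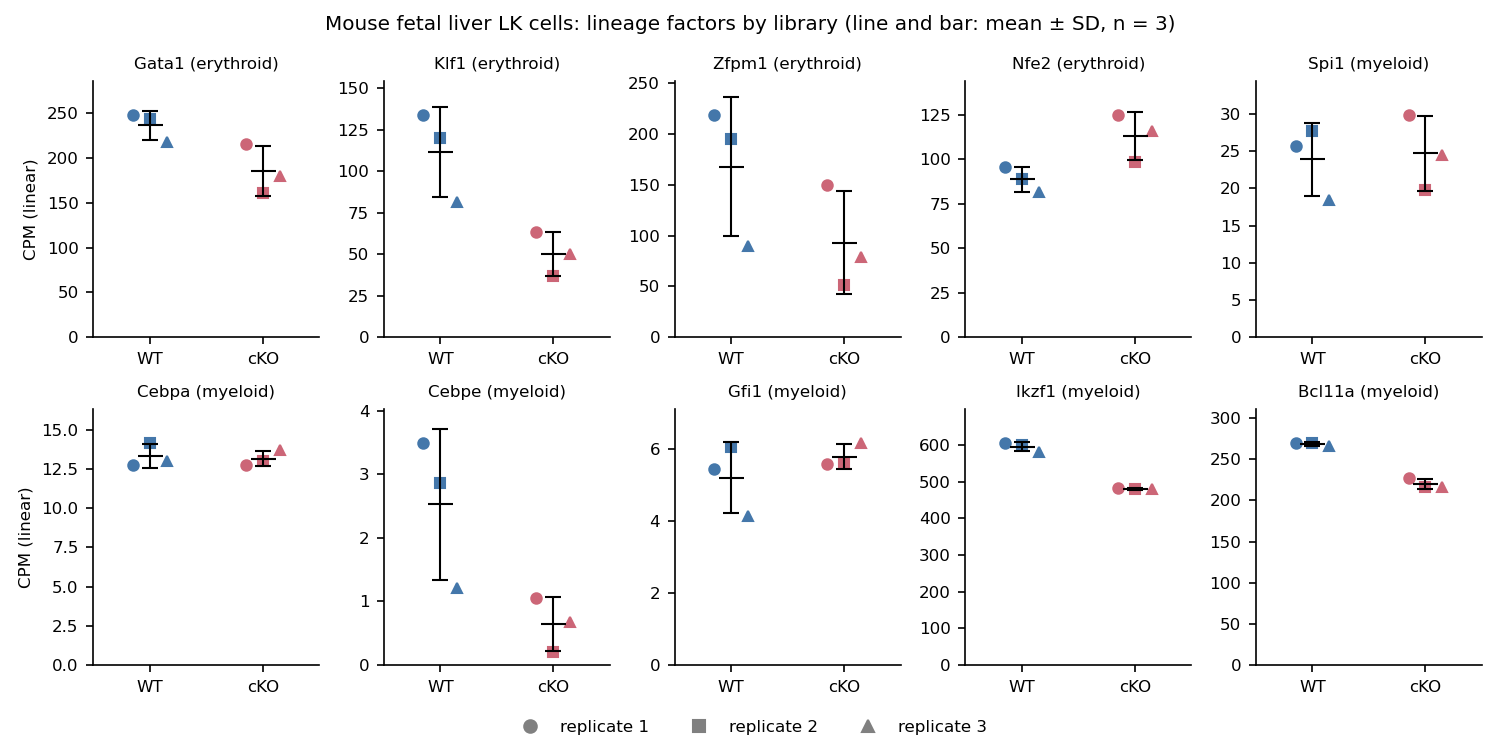
Level of each of the 10 factors in CPM (vertical axes, linear, each from 0) in the 3 WT and 3 cKO mouse libraries; points are libraries, with the replicate number by shape, and the line and bar give mean ± SD. WT replicate 3 is the lowest WT library for Klf1 (81.3 CPM) and Zfpm1 (89.9 CPM), and cKO replicate 1 is the highest cKO library for both.

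Among the myeloid factors, the pioneers that open the granulocyte and macrophage programmes did not pass the test in the mouse. Spi1 was at 25.7, 27.7 and 18.4 CPM in WT and at 29.9, 19.8 and 24.5 CPM in cKO, with overlapping groups. Its log2 fold change was 0.05 (SE 0.19, 95% interval -0.40 to 0.50, adjusted p 0.867). Cebpa was at 12.8, 14.2 and 13 CPM in WT and at 12.8, 13 and 13.7 CPM in cKO, nearly the same level in every library. The log2 fold change of Cebpa was -0.02 (SE 0.081, 95% interval -0.20 to 0.17, adjusted p 0.895). Gfi1, the repressor that follows C/EBP alpha in granulocyte precursors, had counts of 121, 124 and 89 in WT and of 128, 138 and 136 in cKO, with a log2 fold change of 0.15 (SE 0.15, 95% interval -0.20 to 0.51, adjusted p 0.467). The interval of Cebpa was thus much narrower than those of Spi1 and Gfi1.

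Cebpe (ENSMUSG00000052435, chromosome 14, 54710360 to 54712174, minus strand), which acts in late granulocyte maturation, had the largest fold change of the 10 and the lowest counts. Its counts were 78, 59 and 26 in WT and fell to 24, 5 and 15 in cKO. The groups were separate by a small margin, WT replicate 3 at 1.21 CPM and cKO replicate 1 at 1.05 CPM. Its log2 fold change of -1.99 (SE 0.55, 95% interval -3.27 to -0.70, adjusted p 0.0269) was the least precise of the 10. The call was lost without WT replicate 1 (adjusted p 0.0914), WT replicate 2 (0.0831) or cKO replicate 3 (0.0843).

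Ikzf1 (ENSMUSG00000018654, chromosome 11, 11685003 to 11772926, plus strand) and Bcl11a (ENSMUSG00000000861, chromosome 11, 24078056 to 24174123, plus strand) fell by smaller folds that were measured far more tightly. Ikzf1 was at 607, 601 and 581 CPM in WT and at 484, 480 and 479 CPM in cKO. The gap between the groups, from 581 down to 484 CPM, was several times the spread inside either group. On the log2 scale Ikzf1 stood at -0.31 (SE 0.033, adjusted p 0.000387). Bcl11a was at 270.4, 270 and 266 CPM in WT and at 227, 216 and 217 CPM in cKO, again with no overlap, and its log2 fold change was -0.29 (SE 0.035, adjusted p 0.000707). Both calls held in all 15 alternatives.

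The spread of Gata1, Klf1 and Zfpm1 between libraries of the same group moved with the GC content of their transcripts. WT replicates 1, 2 and 3 deviated from the WT mean, over the genes with the highest GC (57.2 to 74.2%, 1490 genes), by a median of 0.20, 0.11 and -0.29 log2. The cKO replicates deviated by 0.31, -0.30 and 0. Klf1 (61.0% GC), Zfpm1 (66.8%), Spi1 (58.9%), Cebpa (62.6%), Cebpe (61.5%) and Gfi1 (57.4%) were among them, with Gata1 (55.2%) just below. Nfe2 (51.6%), Ikzf1 (46.9%) and Bcl11a (44.8%) had lower GC and lay where the libraries differed little. Nfe2 still deviated by 0.11, 0 and -0.11 in WT and by 0.14, -0.19 and 0.05 in cKO, more than the GC trend at its place, which ran from -0.03 to 0.04. Across GC, the median log2 fold change of all genes was 0.03 in the 1490 genes of lowest GC and -0.27 in those of highest, the direction of the change in Klf1, Gata1 and Cebpe. Cebpa did not follow the trend: it deviated by -0.06, 0.09 and -0.03 in WT and by -0.04, -0.01 and 0.06 in cKO. Gfi1 deviated by -0.31 in WT replicate 3 but by -0.05 and -0.04 in cKO replicates 1 and 2.

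Fits that took the GC trend out were added after these values were seen. When the trend was removed within each group, which by construction keeps the difference between groups, Klf1 stood at 112, 109 and 106 CPM in WT and 48.6, 47.7 and 50.3 CPM in cKO. Zfpm1 became 163, 169 and 138 CPM in WT and 97.5, 75.3 and 79.6 CPM in cKO, groups that no longer overlapped. The same correction widened the spread of Cebpa, to 10.3, 12.7 and 17.8 CPM in WT and 9.35, 17.6 and 13.8 CPM in cKO, and that of Gfi1 in cKO, to 4.74, 6.56 and 6.17 CPM. In that fit Zfpm1 was called lower, with a log2 fold change of -0.89 (adjusted p 0.000164), and Spi1 remained at 0.05 (adjusted p 0.592). By construction the correction also takes trend-linked spread within groups out of the data, and the test makes no allowance for this. Its adjusted p-values can therefore be too small. It called 7132 mouse genes, against 5443 in the main fit. When the trend was removed from every library alike, group difference included, the log2 fold changes moved to -0.83 for Klf1, -0.36 for Zfpm1 (adjusted p 0.0627), -0.28 for Gata1 and -1.64 for Cebpe. Spi1 then stood at 0.29 and was called higher (adjusted p 0.00961). Nfe2 stood at 0.35 and 0.33 in the 2 fits.

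**Figure D2:**
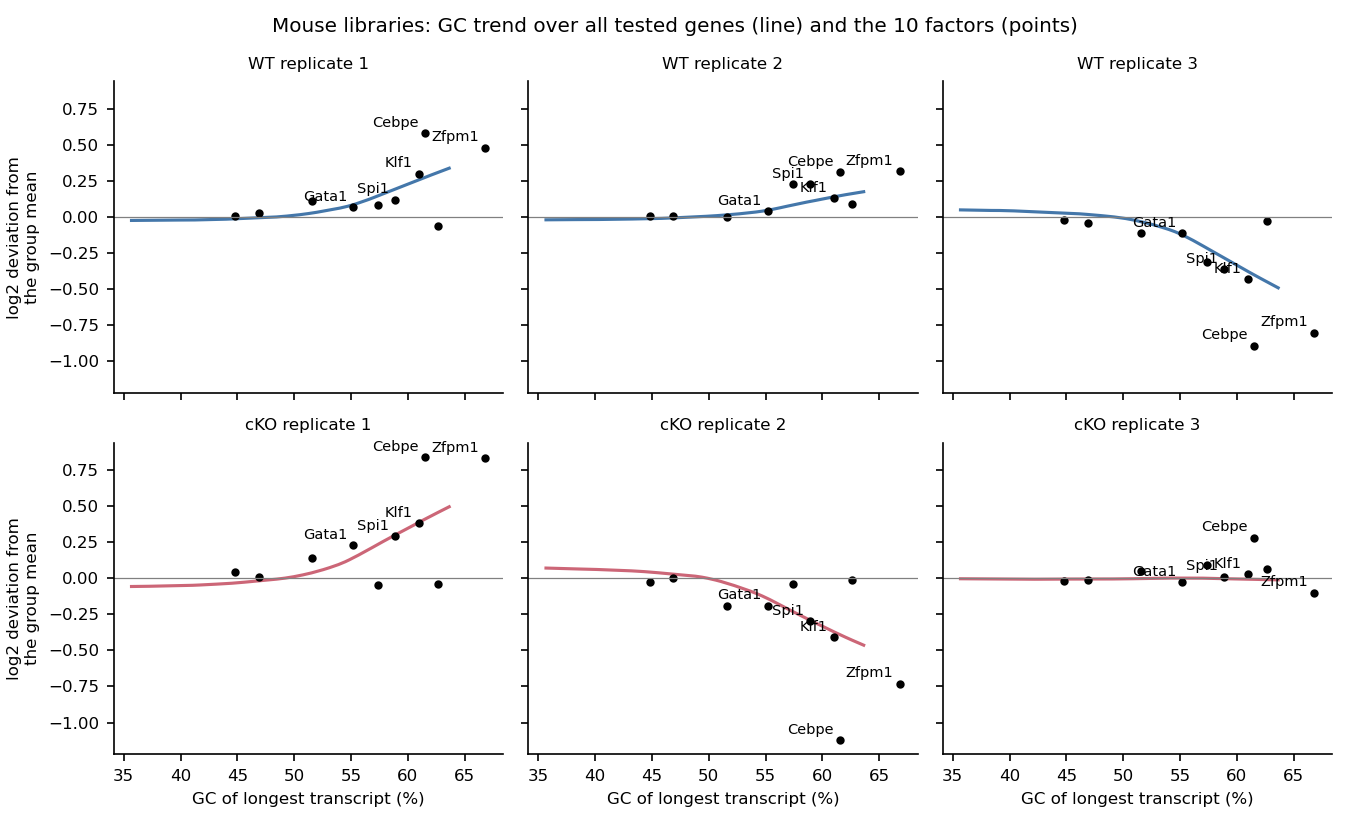
Deviation of each mouse library from its group mean (vertical axis, log2) against transcript GC content (horizontal axis, percent), 1 panel per library; the line is the smoothed trend over all tested genes and the points are the 10 factors. Zfpm1, Klf1 and Cebpe, at GC of 61.0 to 66.8%, lie above 0 in WT replicates 1 and 2 and cKO replicate 1 and below 0 in WT replicate 3 and cKO replicate 2.

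All 6 myeloid factors fell in the human cells with less DDX21: GFI1 to 26.4%, CEBPE to 38.2%, CEBPA to 41.0%, BCL11A to 60.1%, IKZF1 to 62.1% and SPI1 to 89.1% of shNC. Of the erythroid factors, GATA1 rose to 129% and ZFPM1 to 107%, and KLF1 and NFE2 were not called. In all, 8 of the 10 were called, against 52.7% of the 20188 genes tested. Of these, 6 were lower, against 27.4% of all genes, and 2 were higher, against 25.3%. The groups did not overlap for 9 of the 10, against 57.4% of all genes. The median log2 fold change was 0.06 over the erythroid and -1.01 over the myeloid factors, with 0.01 over all genes.

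GATA1 (ENSG00000102145, hg38 chromosome X, 48786540 to 48794311, plus strand) was at 188, 193 and 195 CPM in the 3 shNC libraries and at 248, 252 and 245 CPM in the 3 shDDX21 libraries. The rise was many times the spread inside either group. Its log2 fold change was 0.37 (SE 0.027, 95% interval 0.32 to 0.42, adjusted p 3.18e-20). An unnamed gene on the opposite strand, ENSG00000232828, overlaps GATA1 and gave counts equal to 5.43% of those of GATA1. That gene had a log2 fold change of -0.30 (adjusted p 0.00701).

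The other erythroid factors of the human cells lay within 0.10 log2 of their control levels. KLF1 was at 109, 113 and 104 CPM in shNC and at 101, 108 and 100.1 CPM in shDDX21, with overlapping groups. Its log2 fold change was -0.08 (SE 0.036, 95% interval -0.15 to -0.01, adjusted p 0.0576). ZFPM1 was at 78.7, 79.8 and 79.4 CPM in shNC and at 88.9, 82.5 and 82.6 CPM in shDDX21, without overlap, and on the log2 scale it stood at 0.10 (SE 0.039, adjusted p 0.0297). The ZFPM1 call was lost in 7 of 13 alternatives, among them leaving out shNC replicate 1 (adjusted p 0.10), shNC replicate 2 (0.0543), shNC replicate 3 (0.0666) or shDDX21 replicate 1 (0.247). ZFPM1-AS1, transcribed from the opposite strand, gave 8.69% of the counts of ZFPM1, with a log2 fold change of -0.34 (adjusted p 0.0273). NFE2 was at 226, 229.8 and 227 CPM in shNC and at 232, 232 and 233 CPM in shDDX21, and its log2 fold change of 0.03 (SE 0.026, 95% interval -0.02 to 0.08, adjusted p 0.313) was not called although the groups did not overlap. KLF1 passed the test as lower when shNC replicate 3 was left out (-0.12, adjusted p 0.0108), and likewise when shDDX21 replicate 2 was (-0.11, adjusted p 0.0123).

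SPI1 (ENSG00000066336, hg38 chromosome 11, 47354860 to 47409369, minus strand) was at 217, 218 and 206 CPM in shNC and at 193, 187 and 191 CPM in shDDX21. The groups did not overlap, but the fall was the smallest of the myeloid factors, with a log2 fold change of -0.17 (SE 0.028, 95% interval -0.22 to -0.11, adjusted p 4.61e-07). Its value is uncertain to the extent that SLC39A13, which overlaps it on the opposite strand with counts equal to 20.26% of those of SPI1, shared reads with it. SLC39A13 had a log2 fold change of 0.19 (adjusted p 0.00138).

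The granulocyte factors fell the most. CEBPA (ENSG00000245848, chromosome 19, 33299934 to 33302534, minus strand) had counts of 226, 190 and 241 in shNC and of 84, 84 and 110 in shDDX21. CEBPE (ENSG00000092067, chromosome 14, 23117036 to 23120256, minus strand) had counts of 38, 35 and 28 in shNC and of 13, 16 and 11 in shDDX21. GFI1 (ENSG00000162676, chromosome 1, 92473043 to 92486925, minus strand) had counts of 153, 106 and 115 in shNC and of 29, 37 and 35 in shDDX21. In all 3 genes every shDDX21 library was below every shNC library. The log2 fold changes were -1.29 for CEBPA (SE 0.12, adjusted p 1.73e-15), -1.38 for CEBPE (SE 0.30, adjusted p 7.07e-05) and -1.93 for GFI1 (SE 0.17, adjusted p 3.16e-16). The interval of GFI1, -2.27 to -1.59, lay below that of CEBPA, -1.53 to -1.05, while that of CEBPE, -1.99 to -0.78, reached over both.

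IKZF1 (ENSG00000185811, chromosome 7, 50304068 to 50405101, plus strand) was at 138, 139.6 and 133 CPM in shNC and at 82.8, 86.2 and 86.6 CPM in shDDX21. BCL11A (ENSG00000119866, chromosome 2, 60450520 to 60554467, minus strand) was at 13.7, 16.8 and 15 CPM in shNC and at 9.65, 9.96 and 7.74 CPM in shDDX21. Neither gene's groups overlapped. The log2 fold changes were close to each other, -0.69 for IKZF1 (SE 0.034, adjusted p 1.02e-28) and -0.73 for BCL11A (SE 0.10, adjusted p 3.22e-09).

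**Figure D3:**
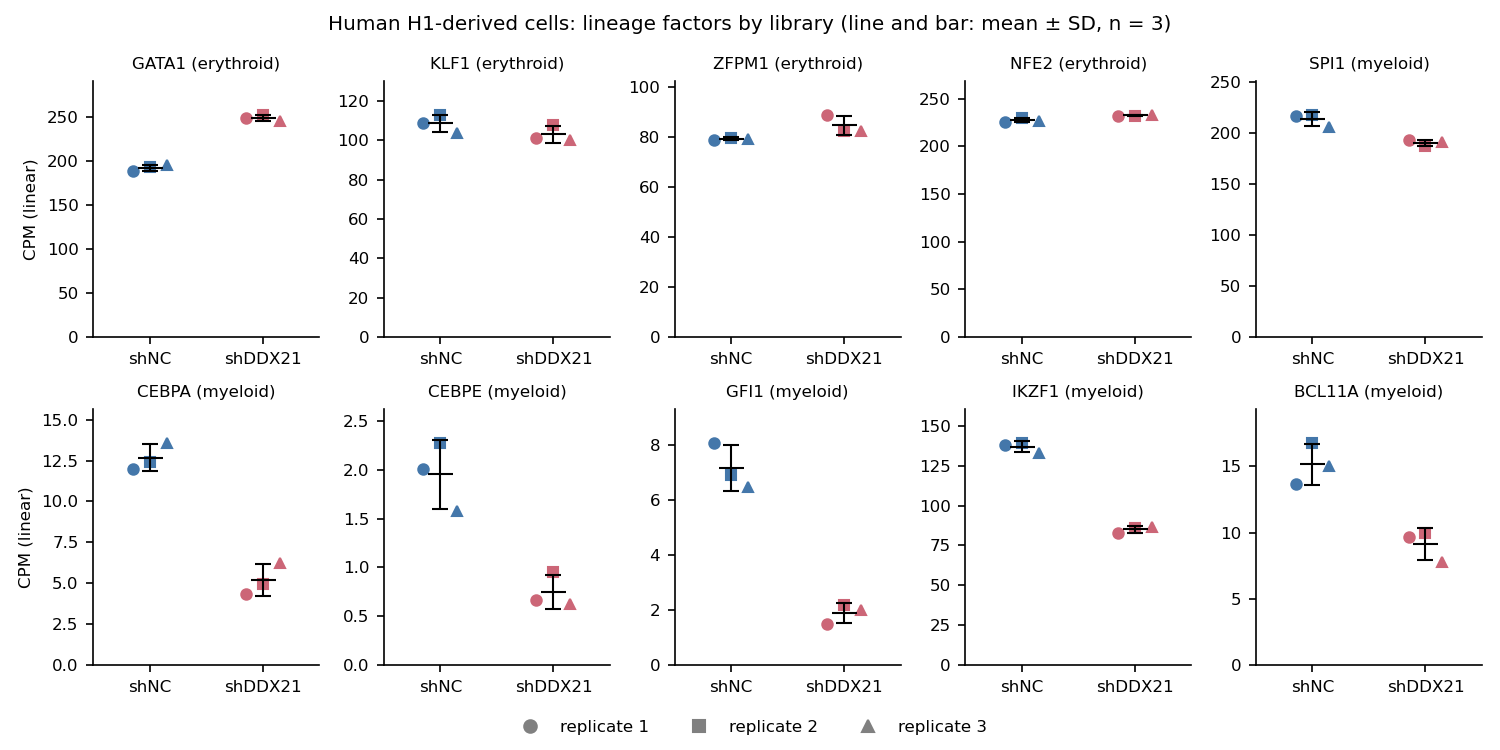
Level of each of the 10 factors in CPM (vertical axes, linear, each from 0) in the 3 shNC and 3 shDDX21 human libraries; points are libraries, with the replicate number by shape, and the line and bar give mean ± SD. The 6 myeloid factors have all shDDX21 libraries below all shNC libraries, GATA1 has them above, and the KLF1 groups overlap.

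The changes in the 2 experiments were compared as the difference between the log2 fold changes, mouse minus human, in a fit of all 12 libraries over the 10313 genes with the same symbol in both. The experiments differ in species, tissue source, way of depleting DDX21 and time since depletion, and these cannot be told apart. The difference was called for 7 of the 10 factors, against 56.2% of all genes compared. It was above 0 for 5 of them, against 35.9% of all genes, and below 0 for 2, against 20.4%.

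GATA1 moved in opposite directions, falling in the mouse and rising in the human cells, and the difference was -0.72 (SE 0.12, adjusted p 0.000329). KLF1 fell in the mouse with a difference of -1.08 (SE 0.27, adjusted p 0.00467), and NFE2 rose in the mouse with a difference of 0.32 (SE 0.10, adjusted p 0.0225). The NFE2 difference was lost without cKO replicate 3 (adjusted p 0.0548). For ZFPM1 the difference of -0.95 was not called (SE 0.50, adjusted p 0.129), but it was without WT replicate 3 (-1.26, adjusted p 0.0213) or cKO replicate 1 (-1.46, adjusted p 0.0064).

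The human granulocyte factors CEBPA and GFI1 fell without a called change in the mouse, and here the difference itself was large: 1.27 for CEBPA (SE 0.16, adjusted p 3.19e-05) and 2.08 for GFI1 (SE 0.24, adjusted p 1.56e-05). IKZF1 and BCL11A fell in both experiments, and more in the human cells, by 0.38 (SE 0.043, adjusted p 1.53e-05) and 0.44 (SE 0.11, adjusted p 0.00556). CEBPE also fell in both, with a difference of -0.61 that was not called (SE 0.72, adjusted p 0.493) and was smaller than its own SE. It stood at -0.14 without cKO replicate 2, -0.29 without WT replicate 1, -0.95 without WT replicate 3 and -1.15 without cKO replicate 1, and was called in none of these. SPI1 differed by 0.21 (SE 0.20, adjusted p 0.376).

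**Figure D4:**
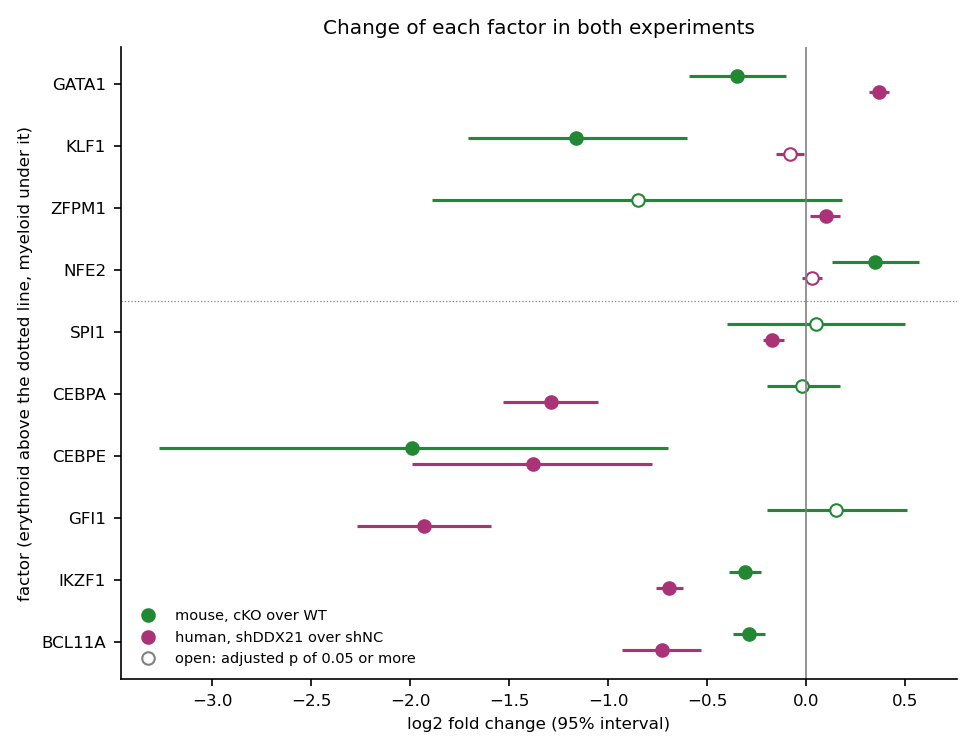
Log2 fold change of each factor (horizontal axis, perturbed over control) in the mouse and the human experiment, with 95% intervals; open symbols mark an adjusted p of 0.05 or more and the dotted line divides erythroid from myeloid factors. The intervals of GATA1 lie on opposite sides of 0 (-0.59 to -0.10 in the mouse, 0.32 to 0.42 in human cells), and those of GFI1 and CEBPA do not meet.

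Levels of different factors were compared per exon length, in TPM (counts divided by the deposited exon length and scaled to the same total in every library). That length is given per gene, not per transcript, and was 24514 bases for human BCL11A. In WT mouse cells the order was Ikzf1 (382 ± 1.48 TPM), Gata1 (359 ± 15.5), Klf1 (269 ± 59.8), Zfpm1 (177 ± 69.1), Nfe2 (110.1 ± 5.93), Bcl11a (75.6 ± 1.30), Spi1 (32.8 ± 6.10), Cebpa (18.7 ± 1.11), Cebpe (7.48 ± 3.38) and Gfi1 (6.03 ± 1.02). Libraries of Klf1 and Zfpm1, of Zfpm1 and Nfe2, and of Cebpe and Gfi1 overlapped. Within each WT library, though, Klf1 was above Zfpm1 (317 and 227, 288 and 205, 202 and 97.9 TPM). The order of Zfpm1 and Nfe2, and that of Cebpe and Gfi1, changed between libraries. In cKO Ikzf1 (327 ± 5.83 TPM) and Gata1 (299 ± 37.7) still led, with overlapping libraries. Nfe2 (149 ± 14.6 TPM) stood beside Klf1 (128 ± 31.4) and Zfpm1 (104 ± 54.3) with overlapping libraries, and Cebpe (2.02 ± 1.29) was last. Within each cKO library Nfe2 was above Klf1, by little in cKO replicate 1 (159.8 and 159 TPM).

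In shNC cells GATA1 led (465 ± 8.02 TPM), followed by NFE2 (362 ± 1.91), KLF1 (253 ± 9.45), SPI1 (199.8 ± 5.09), ZFPM1 (48.4 ± 0.279), IKZF1 (47.2 ± 0.932), CEBPA (18.3 ± 1.26), GFI1 (4.77 ± 0.566), CEBPE (4.17 ± 0.735) and BCL11A (2.32 ± 0.227). GFI1 and CEBPE overlapped, and in shDDX21 so did CEBPE, BCL11A and GFI1, at 1.43, 1.25 and 1.13 TPM. On the TPM scale the median ratio of perturbed to control over all human genes was lower by 0.16 log2 than on the CPM scale. There, ZFPM1 and NFE2 stood at 95.6% and 91.5% of shNC, so the direction of these 2 small differences depends on the scale, while GATA1 was at 116%. NFE2 had no overlap in TPM either, but in the other direction, at 359.8 to 364 in shNC and 328 to 336 in shDDX21. KLF1 stood at 84.7%, with groups that did not overlap in TPM (243 to 262 and 208 to 225) although they did in CPM. By TPM the factors sat at unlike places in the 2 experiments. SPI1 came next after KLF1 in human cells and 4 places after it in WT mouse cells, and IKZF1 was the highest factor in the mouse. These places depend on the deposited exon lengths, which differ between the species. IKZF1 had 10921 bases in the human and 5777 in the mouse, and GATA1 had 1553 and 2438. In CPM, which is not divided by length, IKZF1 (137) stood above KLF1 (109) and ZFPM1 (79.3) in shNC. How far length accounts for the places was not tested.

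The balance between GATA1 and SPI1 moved in opposite directions. The ratio of their TPM was 10.7, 9.70 and 13.1 in WT and 7.98, 9.02 and 8.14 in cKO. It was 2.25, 2.30 and 2.44 in shNC and 3.32, 3.48 and 3.33 in shDDX21. In log2 CPM, GATA1 minus SPI1 changed by -0.40 in the mouse (3.32 ± 0.22 to 2.92 ± 0.09) and by 0.54 in the human cells (-0.15 ± 0.06 to 0.38 ± 0.04). Neither pair of groups overlapped, and no test was made of this score. The mean of the 4 erythroid minus that of the 6 myeloid factors was 2.23 ± 0.11 in WT and 2.10 ± 0.18 in cKO, which overlapped. This score weighs all myeloid factors alike, so the mouse value leans on the poorly counted Cebpe (log2 fold change -1.99, SE 0.55). The score without Cebpe was not computed, so the overlap does not show that the mouse balance stayed the same. In the human cells the score was 2.73 ± 0.05 in shNC and 3.84 ± 0.10 in shDDX21, which did not overlap.

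**Figure D5:**
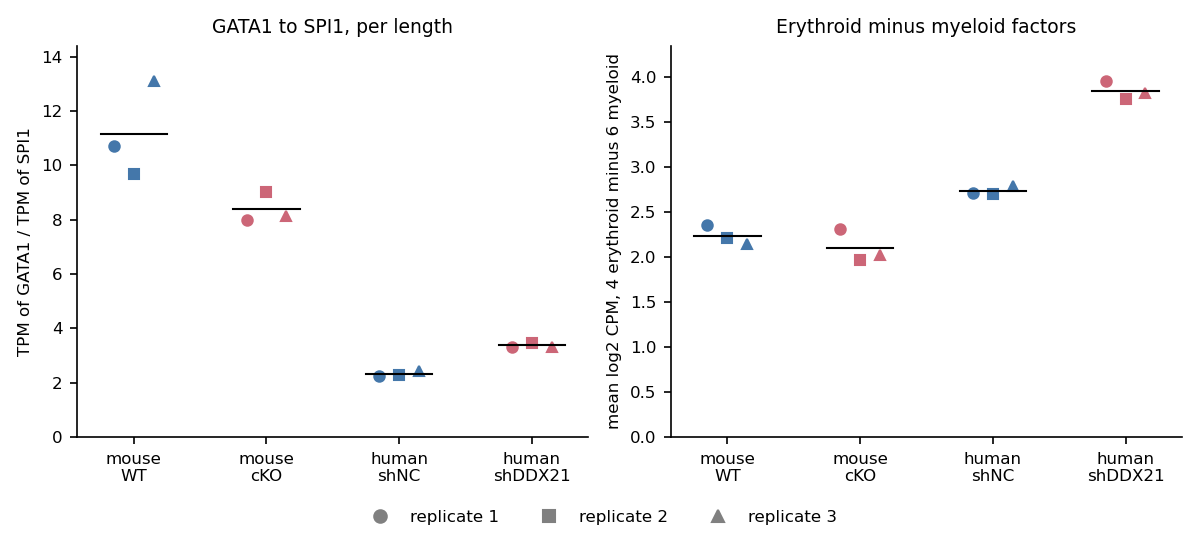
Left, ratio of GATA1 to SPI1 in TPM (vertical axis, linear); right, mean log2 CPM of the 4 erythroid minus the 6 myeloid factors; points are libraries and lines are group means in the 4 groups. The ratio is 9.70 to 13.1 in WT and 7.98 to 9.02 in cKO, and 2.25 to 2.44 in shNC and 3.32 to 3.48 in shDDX21.

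Genes that work with or under these factors were counted from lists, and every rise and fall of a listed gene is given as a log2 fold change. Of 29 tested erythroid genes downstream of GATA1 and KLF1 in the mouse, 20 were lower and 4 higher, with a median of -0.44. Over all genes tested, 15.8% were lower and 20.7% higher in the mouse, and 27.4% lower and 25.3% higher in the human cells. Among those lower were Ermap, a red cell membrane protein, at -0.92 (SE 0.039, adjusted p 5.7e-06) and Rhd, a blood group antigen, at -1.18 (SE 0.058, adjusted p 1.12e-05). Alas2, the first enzyme of red cell heme synthesis, rose from 11.1 ± 0.906 to 22.3 ± 1.05 CPM (log2 fold change 1.01, adjusted p 0.000152), as did Xpo7, a nuclear exporter (0.52, adjusted p 9.56e-05). Of 30 tested in human cells, 18 were higher and 10 lower, with a median of 0.14. With upper-quartile factors 19 were higher and 6 lower. The mitochondrial iron importer SLC25A37 rose by 0.61 (adjusted p 1.33e-36) and the survival gene BCL2L1 by 0.64 (adjusted p 6.93e-36), while the transferrin receptor TFRC fell by 0.78 (adjusted p 7.07e-46) and RHAG by 0.34 (adjusted p 7.53e-18). In this list, as for GATA1 itself, more genes were lower in the mouse and more were higher in the human cells.

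The partners in the GATA1 complex and NF-E2 gave 3 higher and 3 lower of 13 in the mouse, near the shares of all genes, with 2 to 5 higher and 1 to 6 lower over the alternatives. The lower count was 1 without WT replicate 1, WT replicate 2 or cKO replicate 3. Tal1, the core partner of GATA1, fell by 0.26 (SE 0.033, adjusted p 0.00091) and Gfi1b, a red cell repressor, by 0.78 (SE 0.18, adjusted p 0.0139). Tcf12 rose by 0.22 (adjusted p 0.00578), and Maff by 1.04 (adjusted p 0.00612) from 0.896 CPM. Of the same 13, 4 were higher and 8 lower in human cells, with 2 higher by total counts and 5 by upper-quartile factors. TAL1 rose by 0.54 (adjusted p 3.05e-36) and MAFG, a small Maf partner of NFE2, by 0.26 (adjusted p 1.29e-10). GATA2, the stem cell factor that GATA1 replaces, fell by 1.12 (adjusted p 1.31e-49) and LMO2 by 0.77 (adjusted p 5.77e-36).

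Myeloid genes downstream of PU.1 and C/EBP gave 12 lower and 7 higher of 31 in the mouse, with a median of -0.09. The lower count was 6 without cKO replicate 3 and 7 without WT replicate 1 or WT replicate 2, and reached 13 over the alternatives. Csf1r, the macrophage growth factor receptor, fell by 2.08 (SE 0.091, adjusted p 6.56e-06) and Cybb, an oxidase subunit, by 2.12 (SE 0.10, adjusted p 1.02e-05). Spi1 and Cebpa did not pass the test in these cells, as given above. Laptm5 rose by 1.30 (adjusted p 8.74e-06) and Csf3r, the granulocyte growth factor receptor, by 0.71 (adjusted p 0.000193). In the human cells 15 of 27 were lower and 9 higher, with a median of -0.31. MPO, the main granule enzyme of granulocyte precursors, fell by 2.36 (SE 0.042, adjusted p 2.32e-55) and CYBB by 0.97 (adjusted p 1.87e-33), while TYROBP, a signalling adaptor, rose by 0.63 (adjusted p 4.95e-26).

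Other lineage transcription factors gave 12 higher and 6 lower of 32 in the mouse, with a median of 0.11, and 2 higher and 21 lower of 30 in the human cells, with a median of -0.47 (4 higher with upper-quartile factors). Irf8, the monocyte and dendritic cell factor, fell in both, with a log2 fold change of -1.86 in the mouse (adjusted p 8.41e-06) and of -1.22 in human (adjusted p 6.23e-34). In the mouse Ebf1, a B cell factor, fell by 2.86 (adjusted p 0.000475), and Egr1 rose by 3.63 (adjusted p 8.41e-06) and Ikzf2 by 1.08 (adjusted p 2.22e-05). Among human genes, CEBPB fell by 0.99 (adjusted p 1.16e-28), while FOXO1 rose by 0.73 (adjusted p 1.73e-25) and FLI1 by 0.19 (adjusted p 1.19e-09). Corepressors of the NuRD, CoREST and CtBP complexes, through which ZFPM1, GFI1, IKZF1 and BCL11A act, gave 1 higher and 3 lower of 18 in the mouse and 3 higher and 8 lower of 18 in the human cells. Over the alternatives the mouse list gave 1 to 3 higher and 1 to 7 lower, with 1 lower without WT replicate 1, WT replicate 2 or cKO replicate 3, and the human list gave 2 to 5 higher and 7 to 10 lower. In the mouse Chd3 rose by 0.98 (adjusted p 0.000119), and Mbd2 fell by 0.21 (adjusted p 0.00338) and Rbbp7 by 0.14 (adjusted p 0.0217). The human corepressor HDAC1 fell by 0.58 (adjusted p 1.23e-27) and MTA2 by 0.50 (adjusted p 4.35e-24), while CTBP1 rose by 0.14 (adjusted p 0.000119) and GATAD2A by 0.11 (adjusted p 0.000166).

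Markers of other cell types moved beside these results. In the mouse the summed level of 7 late erythroid markers was 217 to 269 CPM in WT and 347 to 515 CPM in cKO, with 4 higher and none lower, while Gata1 and Klf1 fell. Some of these markers are also among the downstream erythroid genes counted above. The sum of 8 tested megakaryocyte markers went from 137 to 157 CPM up to 229 to 299.7 CPM, with 5 higher, beside the rise of Nfe2. Neutrophil markers (1 of 5 higher, 1 lower) summed to 13.1 to 15 CPM in WT and 13.6 to 16.7 CPM in cKO. The higher one was Ltf (0.137 CPM in WT and 2.36 CPM in cKO) and the lower one Cxcr2 (7.79 and 5.77 CPM). Eosinophil markers summed to 19.1 to 20.8 CPM in WT and 16.2 to 17.7 CPM in cKO (1 of 3 lower). Cebpe fell in these same cells. Macrophage markers summed to 2.97 to 3.6 and 1.34 to 2.45 CPM, with 1 of 2 tested lower and C1qc at 0. B lineage markers summed to 12.6 to 14.8 CPM in WT and 9.44 to 11.1 CPM in cKO (3 of 5 lower), beside the fall of Ikzf1 and Bcl11a, and mast cell and basophil markers to 72.9 to 75.6 and 95.4 to 102 CPM (2 of 4 higher). Markers of the sorted stem and progenitor cells summed to 939.7 to 971 CPM in WT and 1025 to 1042 CPM in cKO (4 of 7 higher, 2 lower), with Hlf at 16.3 and 50.3 CPM and Mecom at 1.89 and 13 CPM. Sums of endothelial markers were 49.3 to 53.7 and 85.7 to 92.9 CPM (4 of 6 higher), and of hepatocyte markers 1.31 to 1.72 and 28.0 to 31.9 CPM (4 of 4 higher). In the human cells neutrophil markers summed to 63.8 to 67.5 CPM in shNC and 17.1 to 20.3 CPM in shDDX21, with 3 of 5 lower and 1 higher, beside the fall of CEBPA, CEBPE and GFI1. Macrophage markers went from 125 to 136 CPM down to 72.0 to 76.3 CPM, with 4 of 4 lower, and late erythroid markers from 299.9 to 309 CPM up to 367 to 378 CPM, with 4 of 6 higher and 1 lower. Human megakaryocyte markers summed to 1919 to 2003 CPM in shNC and 2109 to 2136 CPM in shDDX21, with 3 of 6 higher and 2 lower, beside the rise of GATA1. Eosinophil markers summed to 12.9 to 15.1 CPM in shNC and 7.18 to 8.32 CPM in shDDX21 (2 of 4 lower), beside the fall of CEBPE, and endothelial markers to 1519.7 to 1559.6 and 1329 to 1349 CPM (3 of 6 lower, 2 higher). Human B lineage markers summed to 6.24 to 7.2 CPM in shNC and 5.44 to 6.72 CPM in shDDX21 (1 of 2 lower). These ranges overlapped, while IKZF1 and BCL11A fell in the human cells too. Human stem and progenitor markers summed to 1208 to 1224 CPM in shNC and 1429 to 1456 CPM in shDDX21 (3 of 5 higher, 2 lower). The part of any of these cell types in the changes of the 10 factors was not tested.

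The genes whose pattern was most like that of GATA1 over the 12 libraries, by root mean square distance of log2 CPM centred on the control mean, were DELE1 and RPL15 (0.041 each) and CNPPD1 (0.047), among 10312 genes. Like GATA1, they were at -0.30 to -0.38 in the mouse and 0.32 to 0.33 in the human cells. The nearest to SPI1 were TLN1 (0.063), MRI1 (0.067) and MAN2B2 (0.07), with log2 fold changes of -0.01, 0.03 and 0.11 in the mouse and -0.15, -0.12 and -0.16 in the human cells.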

How the data were processed

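Polyadenylated RNA was counted per gene in 12 libraries, 3 per group. STAR, featureCounts and DESeq2 and the builds mm10 and hg38 are named in the submitters' processing notes; the counting's strand setting and its treatment of multi-mapping reads are not given in the sources used here, so overlapping genes are reported as uncertain. Raw tables deposited by the authors give integer read counts for each gene, beside its position and exon length. The authors also deposited normalized values (a signal scaled per library), checked here to be the raw counts over 1 constant per library (largest relative deviation 4.98e-10 in the mouse and 4.97e-10 in the human table), and log2 values that the authors computed from them. That table was used for gene symbols and for this check.

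Raw counts were tested in each experiment with edgeR 4.0.16 in R 4.3.3 (filterByExpr, TMM factors, quasi-likelihood test, two-sided, no covariates), with Benjamini-Hochberg adjustment over all genes tested. Intervals are 95% intervals of the log2 fold change. CPM uses TMM-scaled library sizes, and log2 CPM has a prior count of 2. The difference between experiments is the interaction in a fit of all 12 libraries. Exact permutation of 3 against 3 libraries reaches 0.1 at the lowest (two-sided), so calls rest on the model across genes. Alternatives were other scaling factors, other filters, DESeq2 1.42.0, a block for the replicate number, a 2-fold minimum and leaving out each library. GC corrections (loess of span 0.3 on the GC of the longest GENCODE M21 transcript, known for 99.9% of tested mouse genes) were added after seeing the data, for the mouse libraries only, since no human genome was used. On simulated counts, 200 of 200 well-counted genes changed by 2- or 4-fold were recovered in each experiment, with 13 false calls. The simulation gave all genes of an experiment the same dispersion and held no GC trend. It therefore does not bear on smaller changes or on genes with few counts, such as Cebpe.

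The 10 factors and all lists were chosen with earlier results of these data known. Named genes are the 10 factors, up to 2 genes with the smallest p in each direction from each pathway list, and the 3 genes nearest in pattern to GATA1 and to SPI1, except for a result that is not reported here. Overlapping genes, and the cell type markers given by name, were named outside this rule.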

Additional observations from a re-analysis of the deposited data

Results flagged for a closer look

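Of the 10 factors, 7 changed by different amounts in the mouse and the human experiment in the test of the difference itself (edgeR, mouse minus human log2 fold change). GATA1 differed by -0.72 and KLF1 by -1.08, so both stood lower in mouse cells without Ddx21, relative to their controls, than in human cells with less DDX21. NFE2 differed by 0.32 in the other direction. CEBPA differed by 1.27 and GFI1 by 2.08, and both fell in the human cells with no call in the mouse. IKZF1 differed by 0.38 and BCL11A by 0.44, having fallen in both experiments and further in the human cells. Since 56.2% of all genes compared also differed, a called difference is common between these experiments.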

How the results depend on the processing

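Over the alternatives, the log2 fold changes of the factors kept their direction and call in 128 of 149 mouse fits, 118 of 130 human fits and 155 of 160 fits of the difference. In the mouse 10 calls were lost, 3 were gained and 8 values changed sign. In the human fits 7 calls were lost and 5 gained, and in the difference 1 was lost and 4 gained. All 8 changes of sign were in Spi1 and Cebpa of the mouse, neither of which was called. Leaving out 1 library moved Spi1 between -0.11 and 0.20 and Cebpa between -0.05 and 0.03. Spi1 was at -0.11 without WT replicate 3 and -0.10 without cKO replicate 1. Cebpa was at 0.01 with upper-quartile factors, 0.05 with total counts, 0.38 with the GC offset over all libraries, 0.03 without WT replicate 2, 0.02 without cKO replicate 1 and 0.01 without cKO replicate 2. The cause was not tested.

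Requiring a 2-fold change left 2 mouse factors, with 0 higher and 2 lower, and 3 human factors, with 0 higher and 3 lower. It left 1354 mouse genes (1085 higher, 269 lower) and 1450 human genes (676 higher, 774 lower). The GC offset over all libraries gave 3558 lower mouse genes in place of 2360, and 2 higher factors. Leaving out 1 library at a time gave 3 to 7 called mouse factors, with 0 to 1 higher and 3 to 6 lower, and 1368 to 2708 lower mouse genes. In the human cells it gave 1 to 2 higher factors, and total counts, no low-count filter and DESeq2 each gave 1, since the ZFPM1 call was lost (adjusted p 0.14, 0.089 and 0.105). NFE2 was called with upper-quartile factors (0.10, adjusted p 0.00056) and KLF1 with total counts (-0.11, adjusted p 0.00718). Levels per length were also taken over the TMM-scaled library size, the scaling of CPM, in place of the TPM total. Perturbed over control then stood at 98.9% for mouse Cebpa (105% in TPM), 80.7% for Ikzf1 (85.5%) and 81.8% for Bcl11a (86.7%). In the human cells it stood at 129% for GATA1 (116% in TPM), 94.6% for KLF1 (84.7%), 107% for ZFPM1 (95.6%), 102% for NFE2 (91.5%), 89.1% for SPI1 (79.8%) and 62.1% for IKZF1 (55.7%). Mouse Cebpa and human ZFPM1 and NFE2 thus crossed 100%.

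The labels do not say whether replicate numbers pair the samples. Deviations of same-numbered libraries correlated at 0.32, -0.18 and 0.01 in the mouse and at -0.01, 0 and 0 in the human cells. In the mouse these deviations also moved with GC content, so the correlations cannot settle whether the samples were paired. A fit with the replicate block called 5166 mouse genes and 10601 human genes, 6 mouse and 9 human factors, and 7 differences, the added human call being KLF1 (-0.08, adjusted p 0.0468). The filter of 10 counts in every library gave no value for Cebpe in the mouse. Depth limits Cebpe most, with 5 to 78 counts per mouse library and 11 to 38 per human library, and the 3 libraries per group limit every mouse call near the threshold.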
